A study of Mus musculus with 6 samples.

Results

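The Notch pathway was examined through 10 genes: the receptors Notch1, Notch2, Notch3 and Notch4, the ligands Dll4, Jag1 and Jag2, and the transcriptional repressors Hes1, Hey1 and Heyl, which Notch signalling switches on. They were chosen by name, and the array carried 12 probes for them among 55681 gene probes, because Notch1 and Notch2 had 2 probes each. RNA came from the gastrocnemius, a calf muscle, of male mice 13 weeks old (young, 3 samples) or 25 months old (old, 3 samples), and each sample was hybridised, as Cy3-labelled cRNA, to its own single-colour Agilent array. No treatment or genotype distinguished the groups in the labels, and the strain was not given in the sources used here. Nothing in the labels says that the 3 samples of an age are 3 animals, and the p-values therefore reflect only sample-to-sample spread, some of which may be technical. Of 12 marker genes of mature muscle fibres 11 were well above background on all 6 arrays, and the other, Tnni2, had no value on old replicate 3, so the defining markers of the labelled tissue were present.

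Notch receptors are single-pass membrane proteins that are switched on by ligands on a neighbouring cell. Ligand binding leads to cleavage of the receptor, and its freed intracellular part enters the nucleus, joins the DNA-binding protein Rbpj and activates genes of the Hes and Hey families. In skeletal muscle the pathway is known for keeping satellite cells, the muscle stem cells, quiescent, and for shaping arteries and the mural cells, the pericytes and smooth muscle cells that wrap vessels. A whole-muscle RNA sample holds all of these cells, and fewer cells of a type and less RNA per cell cannot be told apart in it.

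The stretches upstream of the annotated starts are shown first, as a description of sequence. Any link between their letters and the direction of a gene with age was not tested. The RefSeq promoter table (build GRCm38.p6, 250 bases before to 50 after each start) held 7 of the 10 members, the receptors and the ligands. The 150 bases before the start of each receptor are given 5′ to 3′ on the gene's own strand, with capitals marking the GC box GGGCGG or its reverse complement CCGCCC, the letters that Sp1-family factors bind. The windows are chr2:26503823-26503972 (minus strand) for Notch1, chr3:98013388-98013537 (plus strand) for Notch2, chr17:32166891-32167040 (minus strand) for Notch3 and chr17:34564145-34564294 (plus strand) for Notch4.
Notch1: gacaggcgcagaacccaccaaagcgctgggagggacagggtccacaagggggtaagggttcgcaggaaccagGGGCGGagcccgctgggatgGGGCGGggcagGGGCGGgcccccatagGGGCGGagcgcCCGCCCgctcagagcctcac
Notch2: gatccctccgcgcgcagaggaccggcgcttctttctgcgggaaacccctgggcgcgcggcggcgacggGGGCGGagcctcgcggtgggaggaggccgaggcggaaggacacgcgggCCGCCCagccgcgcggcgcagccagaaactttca
Notch3: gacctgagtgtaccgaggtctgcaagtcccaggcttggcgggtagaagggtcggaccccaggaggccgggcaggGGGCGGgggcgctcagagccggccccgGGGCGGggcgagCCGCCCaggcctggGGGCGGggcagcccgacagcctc
Notch4: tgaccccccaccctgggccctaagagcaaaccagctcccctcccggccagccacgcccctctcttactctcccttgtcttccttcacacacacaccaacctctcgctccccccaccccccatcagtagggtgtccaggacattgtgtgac

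The window of Notch1 held 5 copies of the GC box, that of Notch2 held 2 and that of Notch3 held 4, while that of Notch4 held 0. Over the full 300 bases, GGGCGG on either strand was present in 5 of the 7 member promoters and in 35.7% of all 32851 promoters of the same length. The Notch4 promoter had a GC content of 58.3%, against 68.3%, 73.0% and 70.0% for Notch1, Notch2 and Notch3. The core TGGGAA, which Rbpj recognises, was present on either strand in 0 of the 7 member promoters and in 25.6% of all promoters. The E-box CACGTG was in 0 of 7 and in 7.15%. The promoters of the Notch targets Hes1, Hey1 and Heyl were not available, so these counts do not cover them. The letters CACGCG, a site that Hes repressors bind, were present in 4 of the 7 (Notch2, Dll4, Jag1 and Jag2) and in 9.27% of all. The promoters counted for comparison were not matched to the members for GC content, and whether the members differ from them in any motif was not tested. A match is a description of letters in a short window and not a binding site, and these data measured no binding.

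Because Dll4 and Jag1 are the ligands with the clearest contrast between arrays, 60 bases of each are shown around CACGCG, in capitals, from chr2:119325564-119325623 (plus strand, Dll4) and chr2:137116681-137116740 (minus strand, Jag1), both in GRCm38.p6.
Dll4: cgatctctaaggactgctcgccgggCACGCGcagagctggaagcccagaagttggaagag
Jag1: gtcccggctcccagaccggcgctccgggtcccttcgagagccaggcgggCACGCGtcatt

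Levels below are log2 of the background-subtracted signal minus the 75th percentile of the gene probes on the same array, so 0 is that percentile and 1 unit is a doubling. They are compared across arrays and not between probes. Differences are old minus young with their standard error (SE) from limma's moderated test over 28011 probes, 3 arrays per age, and adjusted p-values are Benjamini-Hochberg values over those probes. On this scale 9 of the 10 genes were bright enough to be tested (well above background on at least 3 of 6 arrays), 8 of them on all 6 arrays. None of the 9 passed an adjusted p of 0.05, where 0.254% of all 20906 genes tested did. At an unadjusted p under 0.05 there were 4, all lower in old muscle, against 13.9% of all genes in either direction and 7.97% in that direction. In 5 of the 9 every old array lay below every young array, which held for 13.9% of all genes, and in 0 every old array lay above, against 7.93%. The median difference of the 9 was -0.64, beside -0.062 over all genes. It was -0.37 without young replicate 3, -0.38 without old replicate 3, -0.40 with normexp background correction and -0.41 within the first slide row. The members were chosen with earlier results of these data known, so these counts carry no test of the family.

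Facts of the arrays bear on several of these values. Of the old arrays, replicate 1 shared a row of the slide with the 3 young arrays, and replicates 2 and 3 lay in the other row, which held no young array. Old replicate 1 also stood apart in its control spots: negative controls averaged 61.3 there (51.9 to 55.1 elsewhere), and the slope fitted to its spike-ins was 0.840 (0.925 to 0.941 elsewhere). For each member the comparison within the first row, old replicate 1 minus the young mean, is therefore given beside the difference, with no replicate on the old side. That comparison rests on the array with the outlying controls, and how these bear on its values was not tested. The part of the row in the results cannot be told apart from that of the individual samples. Without old replicate 1, no old array shares a row with the young ones, so age and row coincide in that fit.

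**Figure D1:**
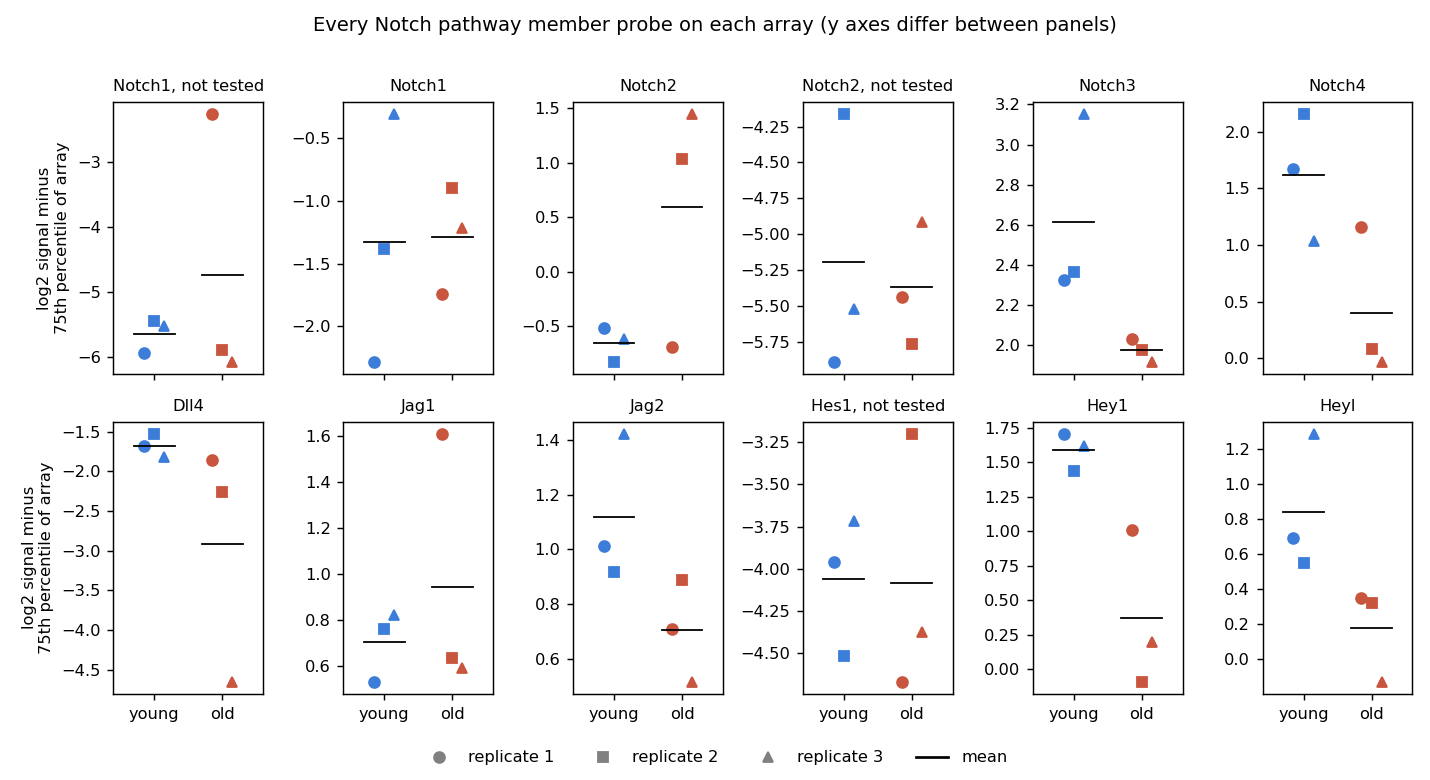
Each panel plots one probe, with the level (log2 signal minus the 75th percentile of the array) on the y axis and the age on the x axis. Points are arrays, their shape gives the replicate number and the bar is the mean of 3. Old and young do not overlap for Notch3, Dll4, Jag2, Hey1 and Heyl. Old replicate 1 stands with the young arrays for Notch2.

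Notch4, the receptor largely restricted to endothelium, was 2.33-fold lower in old muscle at the mean. Its levels were 1.67, 2.16 and 1.04 on young replicates 1 to 3 and 1.16, 0.08 and -0.03 on old replicates 1 to 3. Old replicates 2 and 3 were below all young arrays, while old replicate 1 was above young replicate 3, so the groups overlapped. The difference was -1.22 ± 0.41 (limma adjusted p = 0.284) and its 95% interval ran from -2.19 to -0.25. Within the first slide row it was -0.46.

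Notch3, the receptor of pericytes and vascular smooth muscle, had levels of 2.33, 2.37 and 3.15 on the young arrays and 2.03, 1.98 and 1.92 on the old. The old arrays were close together (SD 0.058, n = 3) and all below the young (SD 0.47, n = 3), with young replicate 3 the highest. The difference was -0.64 ± 0.25, or 1.56-fold (limma adjusted p = 0.342). Within the first row it was -0.58, nearly as large as over all arrays, and without young replicate 3 it was -0.37.

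Notch2, a broadly expressed receptor that satellite cells also carry, was the member with the largest positive difference. Its levels were -0.52, -0.83 and -0.62 on the young arrays and -0.70, 1.03 and 1.44 on the old. Old replicate 1 was within the young range, and old replicates 2 and 3 were above it by far more than the young spread (SD 0.16, n = 3). The difference over all arrays was 1.25 ± 0.53 (limma adjusted p = 0.365, 95% interval -0.0025 to 2.50). Within the first row it was -0.040. Without old replicate 1 it was 1.89 ± 0.21 with a limma adjusted p of 0.0296. The positive difference thus came from the 2 old arrays of the second row, where age and row cannot be told apart. The other Notch2 probe stayed below that brightness on all 6 arrays, with levels from -5.89 to -4.16 among the young and from -5.76 to -4.92 among the old, and was not tested.

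Notch1, the founding mammalian receptor of the family, showed no age difference that these arrays could resolve. Its tested probe read -2.28, -1.38 and -0.31 on the young arrays and -1.74, -0.90 and -1.21 on the old, so the old values lay inside the young range. The difference was 0.041 ± 0.50 (limma adjusted p = 0.975, 95% interval -1.14 to 1.22). Its sign turned with median centring, with normexp background correction, within the first row (-0.41) and without young replicate 1 (-0.44) or old replicate 2 (-0.15). The other Notch1 probe was not well above background on 5 of 6 arrays, at -6.07 to -5.45, and was well above it on old replicate 1 at -2.26. That probe was not tested, and the pair of probes disagree on which array is high.

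Among the ligands, Dll4, the Delta-like ligand of arterial and sprouting endothelium, read -1.68, -1.53 and -1.82 on the young arrays and -1.85, -2.26 and -4.65 on the old. All old values were below the young ones, but old replicate 1 missed overlap by little, and old replicate 3, the one array on which the probe was not well above background, was far below the rest. The difference was -1.24 ± 0.69 (limma adjusted p = 0.461, 95% interval -2.87 to 0.39). It was -0.38 without old replicate 3, -0.40 with normexp background correction, -0.18 within the first row and -1.78 without old replicate 1.

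Jag2, a Serrate-type ligand, read 1.01, 0.92 and 1.42 on the young arrays and 0.71, 0.89 and 0.52 on the old. The groups did not overlap, though old replicate 2 and young replicate 2 were nearly level. The difference was -0.41 ± 0.20, or 1.33-fold (limma adjusted p = 0.425), and -0.41 within the first row too. Without young replicate 3 it was -0.26.

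Jag1, the ligand through which endothelium instructs neighbouring smooth muscle, read 0.53, 0.76 and 0.82 on the young arrays and 1.61, 0.63 and 0.59 on the old. Old replicate 1 alone was high, and old replicates 2 and 3 were within the young range. The difference was 0.24 ± 0.30 (limma adjusted p = 0.743, 95% interval -0.47 to 0.95). Within the first row it was 0.91, and without old replicate 1 it was -0.093. Jag1 and Notch2 thus differed in which old arrays departed from the young ones.

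Hey1, a repressor that Notch induces in endothelium and in quiescent satellite cells, had the lowest p of the family. Its levels were 1.70, 1.44 and 1.62 on the young arrays and 1.01, -0.09 and 0.20 on the old. Every old array was below every young array, with old replicate 1 between the young arrays and the other old ones. The difference was -1.22 ± 0.30, or 2.32-fold lower (limma adjusted p = 0.182, 95% interval -1.92 to -0.51). It was -0.58 within the first row and -1.53 ± 0.19 without old replicate 1, where its adjusted p was 0.0374. Of the 9 tested members 2, Notch2 and Hey1, passed without that array, beside 0.758% of all genes tested in that fit. Age and slide row coincide in it and cannot be told apart.

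Heyl, a relative of Hey1 that mural cells and satellite cells express, read 0.69, 0.55 and 1.28 on the young arrays and 0.35, 0.32 and -0.13 on the old. The old arrays were all below the young ones, and young replicate 3 was the highest. The difference was -0.66 ± 0.25, or 1.58-fold lower (limma adjusted p = 0.333). Within the first row it was -0.49, and without young replicate 3 it was -0.44.

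Hes1, the repressor whose level oscillates in many progenitor cells, was too dim to test. Its probe read -3.96, -4.51 and -3.72 on the young arrays and -4.67, -3.20 and -4.37 on the old, and passed the scanner's background flag on old replicate 2 alone. The values overlapped, and no fold is given. This is a limit of the probe's signal and does not show that the gene was silent.

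**Figure D2:**
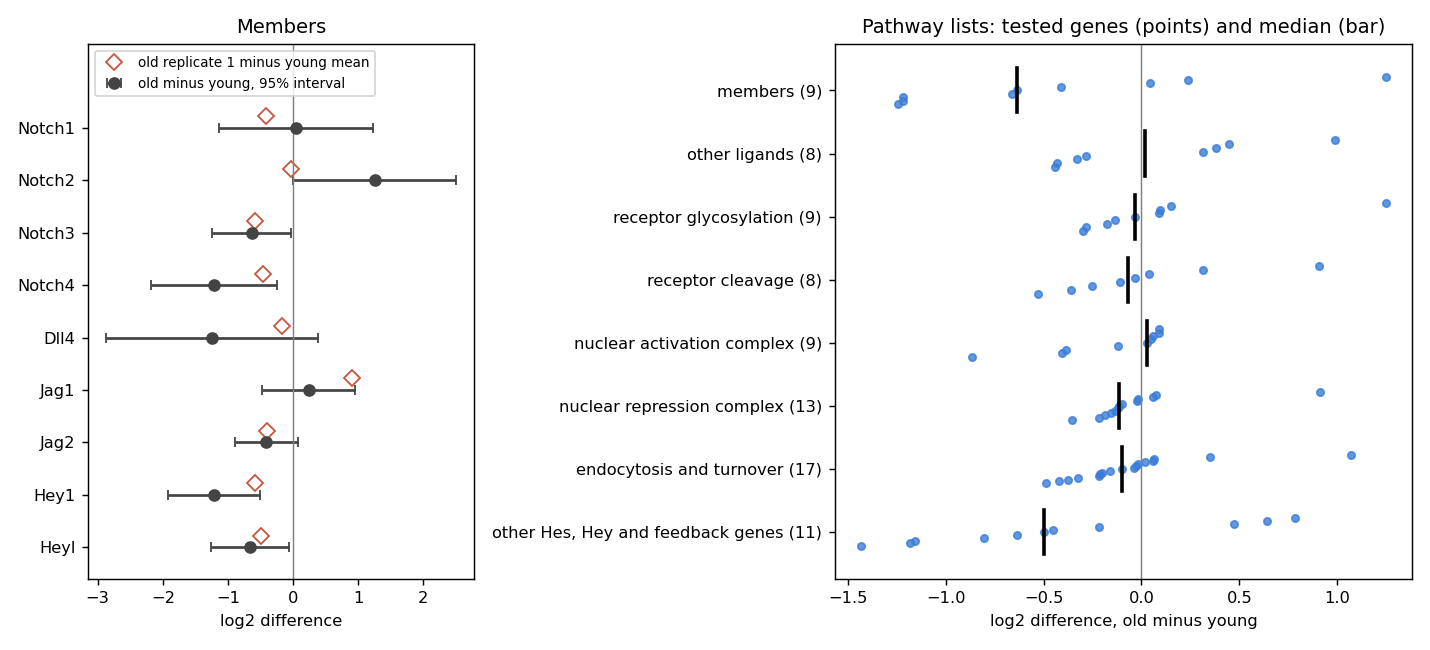
The left panel plots the log2 difference, old minus young, of the 9 tested members with 95% intervals, and the diamonds give old replicate 1 minus the young mean. The right panel plots the difference of every tested gene of the pathway lists, with the number tested in brackets and a bar at the median. The medians of the members (-0.64) and of the other Hes, Hey and feedback genes (-0.50) lie lowest. The latter list has no tested Hey gene and includes Id and Bhlhe genes, and its median is the value of Bhlhe40. Of its 11 tested genes 7 were well above background on all arrays.

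The rest of the pathway was described through 7 lists of 82 genes, of which 75 were tested. In them 27 differences were positive and 48 negative, where 56.9% of all genes were negative, and the median was -0.12. Only Bhlhe41 passed the adjusted threshold. In 10 of the 75 all old arrays were below the young ones, against 13.9% of all genes, and in 3 all were above, against 7.93%, so neither count exceeded the share over all genes.

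Of the other ligands 8 of 9 were tested (4 higher, 4 lower, 0 past the threshold, median 0.016). The sign of that median was not stable: it was -0.061 with quantile normalization, -0.13 with median centring, -0.14 with normexp, -0.31 when all arrays had to be above background, -0.15 within the first row, and -0.18 and -0.025 without old replicate 2 and 3. Dll1, the Delta-like ligand known for acting on satellite cells, read -1.17, -1.37 and -0.77 on the young arrays and -0.13, -0.08 and -0.14 on the old, all higher. Its difference was 0.99 ± 0.20 (limma adjusted p = 0.142). Egfl7, a secreted endothelial protein that binds Notch, had -0.43 ± 0.25, and the microfibril protein Mfap2 had -0.44 ± 0.26 (-0.35 by its other probe).

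The enzymes that put sugars on the receptors were all tested (9 of 9; 4 higher, 5 lower, 0 past the threshold, median -0.034). Poglut1, which adds glucose to the receptor's epidermal growth factor repeats, had 1.25 ± 0.48 (limma adjusted p = 0.332), with overlapping groups. The Fringe enzymes Mfng and Rfng had -0.30 ± 0.21 (-0.51 by the other probe of Mfng) and -0.28 ± 0.24 (-0.27 by the other probe of Rfng).

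Of the proteases 8 of 10 were tested (3 higher, 5 lower, 0 past the threshold, median -0.070). Aph1a, a subunit of gamma-secretase, which makes the final cut of the receptor, had -0.53 ± 0.22 (limma adjusted p = 0.362), and -0.17 by its other probe. Ncstn, the nicastrin subunit of the same complex, had 0.91 ± 0.39 with no overlap, but 1 of its 3 young values was not well above background. Furin, which makes the first cut, had -0.36 ± 0.20.

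The nuclear complexes had small median differences. Of Rbpj and its coactivators 9 of 9 were tested (5 higher, 4 lower, 0 past the threshold, median 0.026), with the coactivator Maml2 at -0.87 ± 0.39 (well above background on 1 of 3 old arrays), the acetyltransferase Crebbp at -0.39 ± 0.18 and Maml3 at -0.41 ± 0.21 (0.12 by its other probe). Of the corepressors 13 of 13 were tested (3 higher, 10 lower, 0 past the threshold, median -0.12). L3mbtl3, a chromatin reader that binds Rbpj, had -0.35 ± 0.20, and the deacetylase Hdac2 had -0.22 ± 0.23. The 3 tested probes of the corepressor Ncor1 disagreed at 0.91, -0.40 and -0.15, and in the first of these young replicate 3 read -0.26 against 2.72 and 2.35 on the other young arrays.

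Of the genes for endocytosis and turnover 17 of 18 were tested (5 higher, 12 lower, 0 past the threshold, median -0.10). Mib1, the ubiquitin ligase that lets a cell send the signal by internalising its ligand, read 1.58, 0.28 and 0.69 on the young arrays and 1.58, 2.13 and 2.06 on the old. Its difference was 1.07 ± 0.35 (limma adjusted p = 0.279), and old replicate 1 was level with young replicate 1. Its relative Mib2 had -0.37 ± 0.22, and Numbl, a relative of the Notch inhibitor Numb, had -0.42 ± 0.20.

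The last list, named other Hes, Hey and feedback genes, also holds Id and Bhlhe genes, relatives of the Hes repressors. Of its 14 genes 11 were tested (Hes2, Hes5, Hes6, Hes7, Id1, Id2, Id3, Id4, Bhlhe40, Bhlhe41 and Nrarp; 3 higher, 8 lower, median -0.50), none of them a Hey gene, and 1 passed the threshold. Bhlhe41, a clock repressor of the same protein superfamily that is not a standard Notch target, fell by 1.43 on the log2 scale (SE 0.18, limma adjusted p = 0.0462), with -0.68 by its other probe. It kept its sign in all 17 alternatives, but its adjusted p was 0.141 with no filter on dim probes, 0.192 with the replicate number as a block, 0.176 with slide row blocked, and 0.120 to 0.195 without any 1 array other than old replicate 1 (0.0429 without that). Several of the 17 alternatives leave a probe's difference as it is and cannot change its sign. Bhlhe40, a relative of Bhlhe41, had -0.50 ± 0.16 and lay below the young range on all old arrays. Hes6, a family member that promotes differentiation, read 1.40, 1.46 and 1.66 on the young arrays and 2.28, 2.22 and 1.94 on the old, a difference of 0.64 ± 0.18 (limma adjusted p = 0.219) with no overlap. Nrarp and Hes5, direct Notch targets singled out after their values were seen, had -1.18 ± 0.58 and -0.80 ± 0.37 (limma adjusted p = 0.419 and 0.394). Both were bright enough on all young arrays but on just 1 of the old ones. They thus passed the brightness filter mainly through the young arrays, and the size of either difference is uncertain.

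Marker lists of the cells that carry the pathway are given beside its members. Of 14 endothelial markers 11 had a negative difference (median -0.34), 0 passed the adjusted threshold and all 14 were well above background on all arrays. The mean level of the list was 1.25 to 1.56 on the young arrays and 0.95 to 1.41 on the old, highest on old replicate 1. The lowest p values in it were those of the transcription factor Erg (-0.78 ± 0.21), the endothelial cadherin Cdh5 (-0.79 ± 0.23) and the adhesion molecule Esam (-0.52 ± 0.17). The markers with a positive difference were Pecam1 (0.52 ± 0.57), Tek (0.46 ± 0.64) and Emcn (0.061 ± 0.30). All 8 arterial markers had a negative difference (median -0.58, 0 past the threshold), led by Sox17 (-0.83 ± 0.18), Efnb2 (-1.03 ± 0.38) and Unc5b (-0.74 ± 0.29). Their mean level was -0.27 to -0.15 on the young arrays and -0.39, -1.03 and -1.02 on the old. Old replicates 2 and 3 were the low arrays in both lists, as for Notch4 and Hey1, whose differences were -1.22 each, beside -0.32 for the endothelial and -0.62 for the arterial list mean. These arrays are also those of the second slide row, where age and row cannot be told apart. Whether members and lists differed was not tested.

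Of 11 mural markers 9 had a negative difference (median -0.40, 0 past the threshold), among them the receptor Pdgfrb (-0.40 ± 0.16), smooth muscle myosin Myh11 (-0.52 ± 0.21) and the channel Kcnj8 (-0.56 ± 0.24). The mean level was 2.37 to 2.57 on the young arrays and 2.18, 2.16 and 2.15 on the old. Single markers varied more over the old arrays, as Kcnj8 did at 0.41, 0.21 and -0.24 on old replicates 1 to 3. The part of either vascular list in the values of Notch3, Notch4, Dll4, Hey1 and Heyl was not tested.

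The satellite cell list did not separate the ages. Of 8 tested markers 4 were higher and 4 lower (median 0.039, 0 past the threshold), and the mean level was 0.60 to 0.66 on the young arrays and 0.51 to 0.69 on the old. Calcr, the calcitonin receptor of quiescent satellite cells, had -1.19 ± 0.45 (limma adjusted p = 0.326), with 2 of 3 old values not well above background. Sdc4 had 0.98 ± 0.42 and Fgfr4 -0.19 ± 0.19. Pax7, the defining satellite cell factor, named here for that role, had -0.019 ± 0.30, and Myf5 was too dim to test.

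Genes of differentiating myogenic cells had the highest median difference of the 20 lists. Of 6, 5 had a positive difference (median 1.72, 0 past the adjusted threshold), led by embryonic myosin Myh3 (1.66 ± 0.29), the fusion factor Mymk (1.77 ± 0.36) and myogenin, Myog (2.47 ± 0.54). Mymk was above background on just 1 of the 3 young arrays, so the size of its difference is uncertain. The list mean was 0.66 to 0.86 on the young arrays and 1.99, 2.78 and 2.86 on old replicates 1 to 3. Old replicates 2 and 3, the arrays of the second slide row, were highest here and for Notch2. Old replicate 1 was already raised in this list by 1.21 and not for Notch2 (-0.040). Of 7 tested macrophage markers 6 had a positive difference (median 0.55, 0 past the threshold), with C1qb at 0.89 ± 0.17, Cd68 at 1.08 ± 0.27 and C1qc at 0.55 ± 0.15. Their part in the values of Notch2 and Jag1 was not tested.

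**Figure D3:**
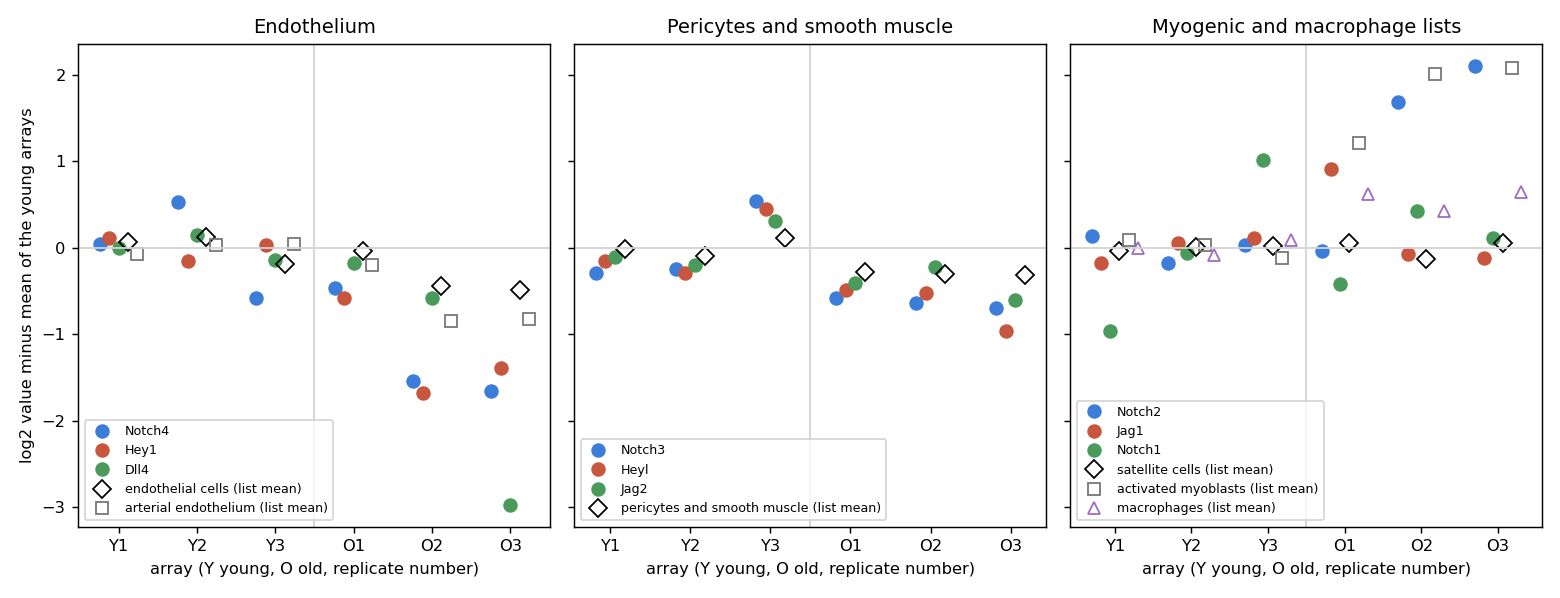
Each panel plots, for every array, the level of 3 members (filled) and the mean level of marker lists (open), each minus its own mean over the 3 young arrays, on a log2 scale. Genes were set beside lists for display, and old replicates 2 and 3 are the arrays of the second slide row. Old replicates 2 and 3 are lowest for Notch4, Hey1 and the arterial list and highest for Notch2 and the myoblast list, while Notch3 and the mural list mean are below their young values on all old arrays.

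For Hey1, the member with the lowest p, the 5 genes with the most similar profile were looked up among 12683 named genes that were well above background on all 6 arrays. Likeness was the root mean square difference between levels centred on each gene's own mean over the 6 arrays, in log2 units. The closest was Fzd7, a Wnt receptor of satellite cells, at 0.138, followed by Mlf1 (0.146), Trappc12 (0.148), Rbmx (0.164) and Lgalsl (0.184). Fzd7 read 1.21, 1.12 and 1.02 on the young arrays and 0.84, -0.54 and -0.17 on the old, with a difference of -1.07 ± 0.35. The differences of the other 4 ran from -1.29 for Mlf1 to -1.01 for Lgalsl. With 6 arrays, such neighbours describe a profile and nothing more.

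**Figure D4:**
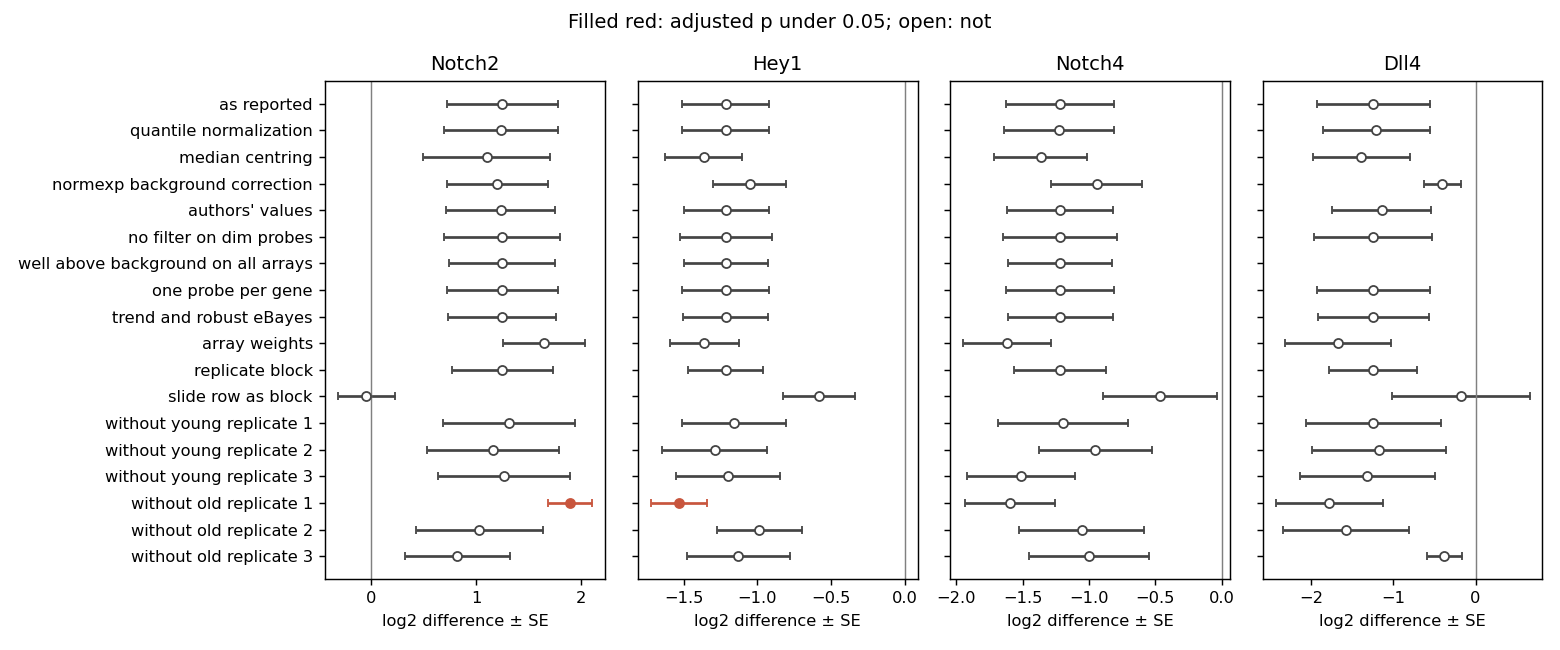
The log2 difference, old minus young, with its SE is plotted for Notch2, Hey1, Notch4 and Dll4 under each processing choice, with filled red points where the adjusted p was under 0.05. Notch2 and Hey1 are filled only without old replicate 1 (1.89 and -1.53), where age and slide row coincide. Notch2 is at -0.040 with the slide row as a block.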

How the data were processed

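Single-colour Agilent arrays of gastrocnemius RNA were analysed, 3 young and 3 old, all on 1 slide. The deposited scanner output is, per the file headers, a spot intensity that Agilent Feature Extraction 11.0.1.1 corrected for background and spatial trend; the submitters' processing notes name version 9.5. A second deposited table gives the authors' intensity values. Each of them equalled the processed intensity over the array's 75th percentile of all spots, times 100, to within 0.51, so it is linear, uncentred and in the direction of the signal. The medians per array were 6, 7 and 7 (young) and 9, 7 and 6 (old). That table served as an alternative.

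Control spots and outlier-flagged spots (161 to 212 per array) were dropped, log2 signals were scaled to each array's 75th percentile and spots of a probe averaged. Files carry accessions and no gene names: 28341 of 55681 probes were given a symbol through RefSeq (GRCm38.p6), 10 of them by name alone, and 27340 kept the file's name. No coordinates were taken from that gene table, since the array grid names another build. A probe counted as well above background by the scanner's flag, and 28011 probes so flagged on at least 3 of 6 arrays, with at least 2 values per age, were fitted with limma 3.58.1 (R 4.3.3, lmFit and eBayes, two-sided), which was tested on simulated data. A gene's representative is its tested probe with the highest mean. Between 49.9% and 54.8% of gene spots were well above background and 0 were saturated. Precision is limited by having 3 arrays per age. An exact permutation test of 3 against 3 cannot go below 0.1, so none was run. The members, the 20 lists, the tests and the alternatives (quantile and median scaling, normexp with offset 50, the authors' values, other filters, 1 probe per gene, other variance settings, array weights, blocks, left-out arrays) were chosen with earlier results of these data known. Named genes are all members, the 3 lowest p of each list and any past the threshold, and the 5 nearest profiles; a gene that this rule also names is not reported here. Nrarp, Hes5, Pax7, Myf5, Pecam1, Tek and Emcn were named outside it, after their values were seen. Normexp used the median spot signal. Figures used Python 3.11.15 and matplotlib 3.10.9.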

Additional observations from a re-analysis of the deposited data

How the results depend on the processing

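Over 17 alternatives, each changing 1 choice, 143 of the 152 member values kept their sign and their side of the threshold, 2 passed it and 7 changed sign. The dim-probe filters, 1 probe per gene, other variance settings and the replicate block leave a probe's difference as it is. A sign could not change in those, and 0 members were past the threshold as reported, so the 143 is no measure of stability. Dll4 was not tested when all 6 arrays had to be well above background. Notch1 changed sign with median centring (-0.11), normexp (-0.051) and the slide row as a block (-0.41), and ran from -0.44 to 0.55 over the left-out arrays. Notch2 changed sign when the slide row was a block (-0.040), and Jag1 ran from -0.093 to 0.42 over the left-out arrays. The number of members called was 0 in every alternative except without old replicate 1 (range 0 to 2 over the left-out arrays), where age and slide row coincide. The 75 probes called over the whole array (56 higher, 19 lower) became 12 with no filter, 44 when all 6 arrays had to pass the background flag, 257 with array weights, 37 with the slide row as a block (19 higher, 18 lower), 61 with median centring (38 higher, 23 lower) and 2 to 213 over the left-out arrays (2 without old replicate 3, 8 without old replicate 2, 11 without young replicate 1 or 2, 22 without young replicate 3 and 213 without old replicate 1). Normexp called 74 (46 higher, 28 lower).

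With the replicate number as a block 9 probes were called and 0 members, the lowest member adjusted p being 0.269 for Hey1. Deviations of same-numbered samples from their age means correlated at -0.06, -0.28 and 0.02. No sample correlated best with its own number, so the samples share only a number. Bhlhe41 and Prx kept their sign in all 17 alternatives, several of which cannot change it, and were no longer called in 8 and 9 of the 17.

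The median of the members was -0.40 with normexp, -0.41 with slide row blocked and -0.76 to -0.37 over the left-out arrays. The median of the other ligands was -0.13 with median centring, -0.14 with normexp, -0.31 when all 6 arrays had to pass the flag, 0.24 with array weights, -0.15 with slide row blocked and -0.18 to 0.28 over the left-out arrays. Median centring, which moved the median of all genes from -0.062 to -0.21, gave -0.18 for receptor glycosylation, -0.22 for cleavage, -0.12 for the activation complex, -0.26 for the repression complex and -0.25 for endocytosis. Array weights gave 0.045 for cleavage and -0.019 for repression. The slide row as a block gave -0.24 for cleavage, -0.082 for activation, -0.020 for endocytosis and -0.25 for the list of Hes, Id, Bhlhe and feedback genes. Normexp gave -0.065 for activation and -0.35 for the Hes, Id, Bhlhe and feedback list. Over the left-out arrays cleavage ran from -0.17 to 0.034, repression from -0.15 to 0.0027 and the Hes, Id, Bhlhe and feedback list from -0.63 to -0.28. Apart from effects that follow from fewer arrays or fewer probes, the cause of these shifts was not tested.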

Other observations

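Other cell types that a muscle sample holds were measured with the same lists. The Schwann cell list had 8 tested genes, 6 lower and 2 higher in old muscle (median -0.83). The myelin gene Prx fell by 1.29 on the log2 scale (SE 0.16, limma adjusted p = 0.0462), an adjusted p that was 0.0528 with median centring, 0.146 with no filter on dim probes, 0.190 with the replicate number as a block, 0.174 with slide row blocked and 0.120 to 0.205 without any 1 array other than old replicate 1 (0.0372 without that). Mbp had 1.33 ± 0.18, but its other probes gave 1.12 and -0.026, and Mag -0.94 ± 0.16. Of 8 stromal markers 7 had a negative difference (median -0.47, 0 past the threshold), with Mfap4 at -1.11 ± 0.29, Col1a1 at -1.56 ± 0.56 and Dcn at -0.85 ± 0.34.

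All 5 tested red cell genes had a negative difference (median -1.20, 0 past the threshold), with Hba-a1 at -1.20 ± 0.32, Hbb-b2 at -1.20 ± 0.35 and Alas2 at -1.26 ± 0.42. Of 5 tested adipocyte genes 4 were negative (median -0.22, 0 past the threshold), with Plin1 at -0.48 ± 0.32, Fabp4 at -0.22 ± 0.17 and Adipoq at -0.24 ± 0.23. Of the T cell markers, Cd4 had -0.19 ± 0.16 and Cd3e -0.019 ± 0.24, and neither passed the threshold. Of 12 mature fibre genes 11 were negative (median -0.17, 0 past the threshold), with Tnni2 at -1.42 ± 0.26, Mylpf at 1.29 ± 0.73 and Myh1 at -0.33 ± 0.19. Tnni2 had no value on old replicate 3. For Mylpf young replicate 3 read 1.95, against 4.93 and 4.52 on young replicates 1 and 2 and 4.97, 5.10 and 5.20 on the old arrays.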
